A study of Mus musculus with 15 samples.

Results

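Replicative core histone genes of the mouse were described here, chosen by name as the genes H2ac, H2bc, H3c and H4c followed by a number in the authors' count table. The rule found 59 genes of 54456, of which 18 encode histone H2A, 17 H2B, 12 H3 and 12 H4. The libraries were made from epithelial organoids of the mouse mammary gland, all wild-type, kept in DMEM/F12 with L-Ala-Gln, ITS and penicillin/streptomycin, which all groups shared. RNA was taken at 0 h, or at 36 h and 72 h beside beads soaked in fibroblast growth factor 10 (FGF10) or in bovine serum albumin (BSA, the control protein), and the series asked whether migrating epithelium passes through an epithelial-mesenchymal transition. Each bead type at each time had 3 libraries, as had 0 h, which makes 5 groups. The labels name no strain, age or animal, and 2 of the BSA 72 h libraries are numbered 2_1 and 2_2, so they may come from 1 culture. The labels do not say that replicates came from separate animals, so p-values measure only the spread between these libraries, which may be technical.

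A nucleosome wraps DNA around an octamer in which pairs of H2A and H2B flank a core of H3 and H4. Cells make most of these proteins in S phase from clustered genes without introns, and their messenger RNAs usually end in a short stem-loop, bound by the protein SLBP, in place of a poly(A) tail. Several of these genes are also known to give polyadenylated transcripts. The libraries were poly(A) selected, per the labels' protocols, so the counts describe the histone transcripts caught by that selection and not the whole pool. Reads that matched several places were not counted, per the file headers, so near-identical copies lose most of their reads and each gene's count is uncertain. Sums per class are therefore given beside single genes.

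The stem-loop is what separates the usual histone message from polyadenylated RNA, so it was looked up first. A 16-base pattern, GGNNC followed by TTTTNA and then GNNCC, was searched on the sense strand of GENCODE M21 transcripts (GRCm38), which were found for 57 of the 59 genes. It was present in 37 of them (64.9%) and in 35 of 21844 other protein-coding genes (0.16%). Many models without a match are short, such as those of H2ac22 (393 bases) and H4c12 (312 bases). A stem-loop past the end of such a model could not be found, so a missing match does not show that the gene lacks one. H2A, H2B and H3 genes carried forms with a stem of GGCTC or its like, and H4 genes mostly carried a stem of GGCCC. The sites below are printed 5′ to 3′ with the stem-loop in capitals and up to 6 bases on each side. They belong to an H2A, an H2B and an H3 gene whose transcript models stop soon after the stem-loop, and to H4 genes with a short and a long model.
H2ac24: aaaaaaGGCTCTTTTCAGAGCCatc
H2ac11: aacaaaGGCTCTTTTCAGAGCCacctaa
H2bc11: tccaaaGGCTCTTTTCAGAGCCacgcac
H3c1: accaaaGGCTCTTTTCAGAGCCacacac
H4c8: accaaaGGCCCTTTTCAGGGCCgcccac
H4c9: cttaaaGGCCCTTTTTAGGGCCaccaca
The model of H2ac24 ended 3 bases past the stem-loop, that of H2ac11 23 bases past it and that of H4c9 330 bases past it. The gene with the most counts, H2bc4, has 2 exons and 1156 exon bases in the deposited table, and its transcript holds no match to the pattern. A match is a description of the letters and says nothing about how a transcript ended in these cells.

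Promoters of the H2A genes were compared because most of these genes moved together in the results that follow. RefSeq promoters (GRCm38.p6, 250 bases before the start searched) were found for 52 of the genes in 53 entries. CCAAT, read on both strands, was in 100% of the 17 H2A and the 15 H2B entries, in 80% of the 10 H3 and in 27.3% of the 11 H4 entries, and in 33.8% of all 32851 promoters. TATAAA on the sense strand was in 35.8% of the members' entries and in 7.59% of all promoters. ATTTGCAT on both strands was in 24.5% and 1.6%, and in the histone genes it stood only in H2A and H2B entries. As 13 pairs of H2A and H2B genes stand head to head, the same site can be counted for both genes of a pair. The H2A and H2B shares are therefore not independent. The 200 bases before the starts of 2 H2A genes that rose with FGF10 at 72 h are printed 5′ to 3′ on the gene strand, with these motifs in capitals. H2ac22 lies at chr13:21787249-21787448 and H2ac11 at chr13:22042950-22043149, both on the minus strand of GRCm38.p6.
H2ac22: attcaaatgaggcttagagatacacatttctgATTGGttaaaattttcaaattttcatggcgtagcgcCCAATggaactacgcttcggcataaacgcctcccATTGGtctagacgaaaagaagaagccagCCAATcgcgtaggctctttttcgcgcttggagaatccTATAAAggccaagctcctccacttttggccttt
H2ac11: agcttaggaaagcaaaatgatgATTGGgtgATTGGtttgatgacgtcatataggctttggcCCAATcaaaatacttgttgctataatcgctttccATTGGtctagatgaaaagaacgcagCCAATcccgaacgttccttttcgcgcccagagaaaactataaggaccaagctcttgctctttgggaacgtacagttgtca
In H2ac22 the TATAAA stood 33 bases before the start. In both, CCAAT was found in each orientation.

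Assigned counts ran from 11965322 to 24261233 per library, and the 59 genes took 0.047% to 0.101% of them. The 10 mammary epithelial markers chosen as a check were above 0 in every library. The library 0 h replicate 1 stood apart from the other two of its group: Mki67, a marker of cycling cells, was at 49.1 CPM (counts scaled to the normalized library size) against 4.45 and 2.92. Among these histone genes the summed H2A counts followed, at 289 CPM against 41.3 and 25.9. The numbers of histone genes called against 0 h are therefore given with and without that library. Other values against 0 h, such as those of single genes and of other lists, include it unless stated. FGF10 36 h replicate 4 also differed, with 1.11% of counts from mitochondrial transcripts against 3.97% and 3.60% in the other two.

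Of the 59 genes, 45 had enough counts to be tested among 18140 tested genes, 14 did not, and 6 of those had 0 counts in every library. H2ac18, H2ac19, H3c13, H3c14 and H2bc18 were among the 6, and none of their 100-base transcript windows is unique. Other annotated genes also cover 100% of their exon bases, and reads of several genes were left out. Their counts of 0 therefore do not measure their expression. The level was uneven across the rest. H2bc4 held 50.2% of all member counts, with a mean of 347 CPM over the 15 libraries. H2ac24 held 15% with 105 CPM and H2ac23 13.4% with 93.1 CPM. Per kilobase of exon the order of mean level was H2bc4 (300.2 CPM per kilobase), H2ac24 (218), H2ac23 (194), H2ac11 (32.8), H2ac8 (26.3) and H4c4 (24.2). H2ac24 and H2ac23 reached these levels although only 7.83% and 7.35% of their 100-base windows occur in no other transcript, so their counts come from a small part of each gene. In H3 the leading genes by count were H3c4 (4.13 CPM), H3c15 (2.77 CPM) and H3c6 (2.30 CPM), and in H4 they were H4c4 (27.5 CPM), H4c9 (7.57 CPM) and H4c14 (3.06 CPM). The lowest levels per kilobase among tested genes were those of H3c2, at 0.511 CPM per kilobase, and H2bc9, at 0.624.

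The summed counts of the classes behaved differently from each other. Summed H2A was 249.8, 220.2 and 189 CPM in the BSA 36 h libraries and 69.9, 74.6 and 70.5 CPM in the BSA 72 h libraries. It was 561, 316 and 600.3 CPM in FGF10 36 h and 405, 299.6 and 490.4 CPM in FGF10 72 h. FGF10 libraries were above BSA libraries at both times without overlap, 2.24-fold in the mean at 36 h and 5.56-fold at 72 h. H2ac23 and H2ac24 held most of summed H2A, at means of 26.3 and 27.5 CPM in BSA 72 h. In FGF10 72 h their means were 143 and 163 CPM, and neither gene was called. Summed H2B was 428, 435 and 364 CPM in BSA 72 h and 313, 261.5 and 223 CPM in FGF10 72 h, so here the FGF10 libraries were the lower ones, 1.54-fold in the mean. That sum is nearly all H2bc4. Without it, the other 16 H2B genes summed to 18.7 ± 1.5 CPM (SD, n = 3) in BSA 72 h and 19.4 ± 1.28 CPM in FGF10 72 h, and the libraries overlapped.

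Summed H3 was 10.01, 9.07 and 9.18 CPM in BSA 72 h and 13.2, 13 and 12.4 CPM in FGF10 72 h, which is 1.37-fold higher without overlap. Summed H4 was 39.5 ± 9.01 CPM in BSA 72 h and 43.8 ± 4.73 CPM in FGF10 72 h (SD, n = 3 each) and overlapped. Without H4c4, its gene with the most counts, the H4 difference changed sign, from a log2 ratio of 0.15 to -0.38. All 59 genes summed to 529.6 ± 49.5 CPM in BSA 72 h and 721 ± 93.8 CPM in FGF10 72 h. Sums over chosen genes carry no test here, and no test of one class against another was made.

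**Figure D1:**
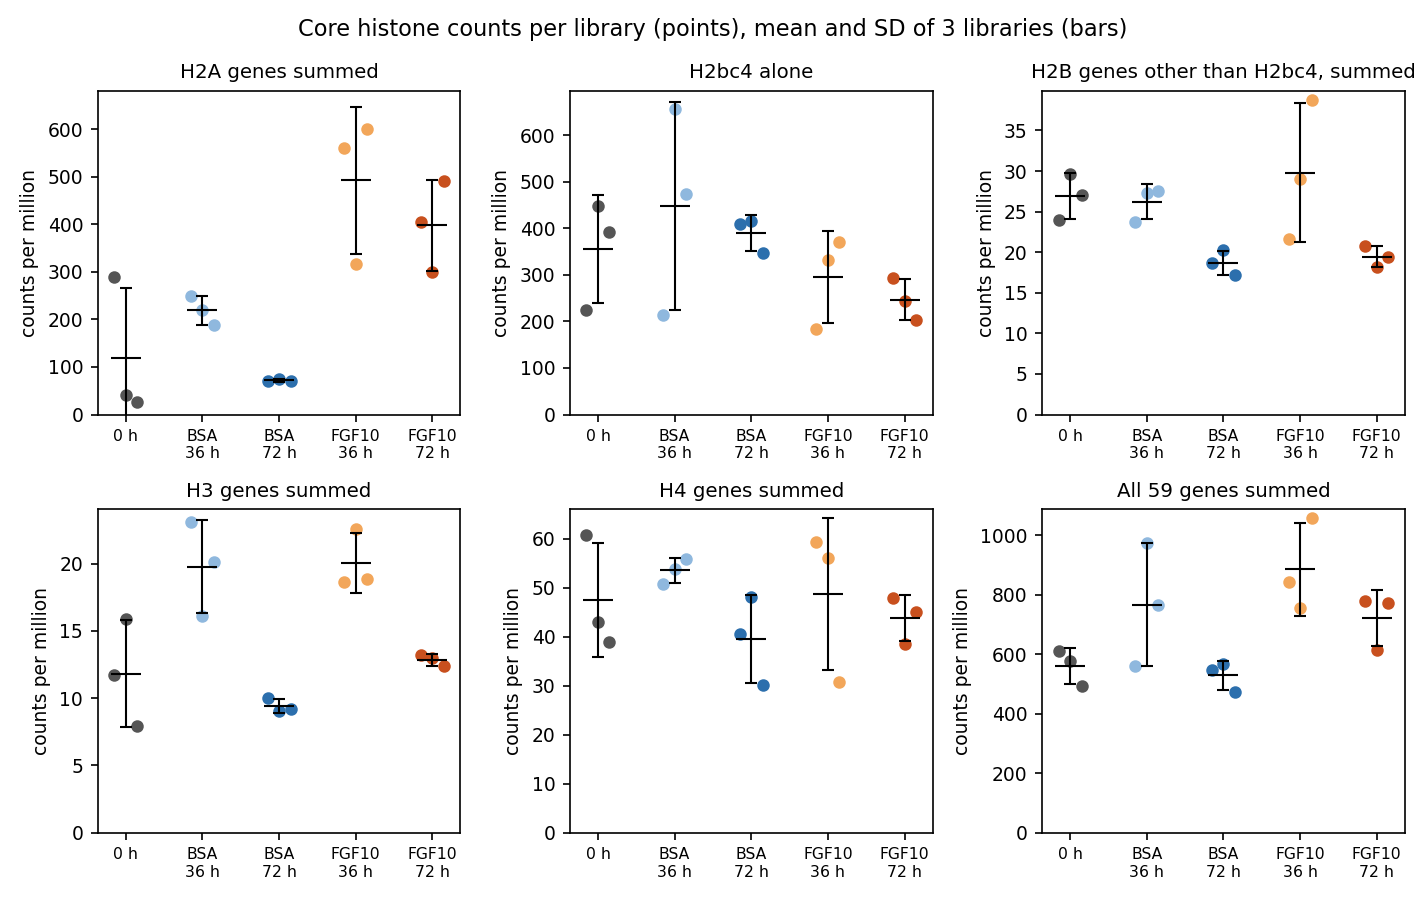
CPM (vertical axis, from 0) of the summed H2A genes, H2bc4 alone, the other H2B genes, H3, H4 and all 59 genes in each library (points) of the 5 groups, with the mean and SD of 3 libraries (bars). Summed H2A in the 3 FGF10 72 h libraries lies between 299.6 and 490.4 CPM against 69.9 to 74.6 CPM in BSA 72 h, whereas H2bc4 is lower with FGF10 at 72 h; 0 h replicate 1 lies far above the other 0 h libraries in H2A.

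At 72 h, 6 of the 45 tested histone genes rose with FGF10 against BSA (edgeR quasi-likelihood test, Benjamini-Hochberg adjusted p under 0.05 over all genes), where 3.01% of all tested genes rose. They were the H2A genes H2ac22, H2ac10, H2ac15, H2ac7 and H2ac11 and the H3 gene H3c1. The smallest adjusted p among H2B genes was 0.220 (edgeR) and among H4 genes 0.179. In all 14 tested H2A genes the 3 FGF10 libraries lay above the 3 BSA libraries without overlap, a pattern that 21.9% of all tested genes showed. The same held for 6 of the 9 H3 genes and 4 of the 13 H2B genes. The median log2 difference was 2.46 for the H2A genes, 1.25 for H3, 0.10 for H2B and -0.10 for H4, against -0.01 over all tested genes.

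H2ac22, at chr13:21970996-21971388 in the deposited table's coordinates (GRCm39 per the submitters' processing notes) and a single exon of 393 bases, was at 0.564, 0.177 and 0.404 CPM in BSA 72 h and 4.68, 2.62 and 4.33 CPM in FGF10 72 h. Its log2 difference was 3.31 ± 0.64 (SE), with an adjusted p of 0.0113 in edgeR. H2ac10 was at 0.462, 0.354 and 0.231 CPM with BSA and 2.69, 1.27 and 2.68 CPM with FGF10, a log2 difference of 2.64 ± 0.58 (adjusted p = 0.0179, edgeR). In both genes FGF10 replicate 3 was the lowest of its group and still above every BSA library. H2ac11, which has far more counts (57 to 80 per BSA 72 h library), was at 4.11, 3.36 and 3.98 CPM with BSA and 28.1, 21 and 28.3 CPM with FGF10, a log2 difference of 2.76 ± 0.67 (adjusted p = 0.0342, edgeR). H2ac15 and H2ac7 differed by 2.48 and 2.58 in log2 (adjusted p = 0.0271 and 0.0290, edgeR). FGF10 replicate 3 was again the lowest of its group in each.

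H3c1 was at 0.103, 0.236 and 0.0577 CPM in BSA 72 h, which is 2, 4 and 1 counts, and at 1.15, 0.591 and 0.853 CPM in FGF10 72 h, which is 18, 7 and 14 counts. Its log2 difference was 2.68 ± 0.62 (adjusted p = 0.0234, edgeR). The BSA 72 h libraries were the lowest of the whole series for this gene. The H2A genes with the most counts had differences of like size that did not pass the test. H2ac24 was at 27.4, 28.5 and 26.7 CPM with BSA and 162, 127 and 200 CPM with FGF10 at 72 h (log2 2.56 ± 0.78, adjusted p = 0.0756, edgeR). H2ac23 and H2ac8 had log2 differences of 2.44 and 2.38 (adjusted p = 0.0817 and 0.0830, edgeR). All 3 had narrow BSA 72 h values.

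H2bc4 went the other way in value. It was at 409.6, 415 and 346 CPM in BSA 72 h and 292, 243 and 204 CPM in FGF10 72 h, a log2 difference of -0.66 ± 0.36 (adjusted p = 0.295, edgeR). The 2 groups did not overlap, and 21.7% of all tested genes had FGF10 libraries below BSA libraries in the same way. H4c8 was likewise lower without overlap, at 3.34, 2.71 and 2.54 CPM against 1.22, 1.86 and 1.52 CPM (log2 -0.91 ± 0.40, adjusted p = 0.179, edgeR).

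**Figure D2:**
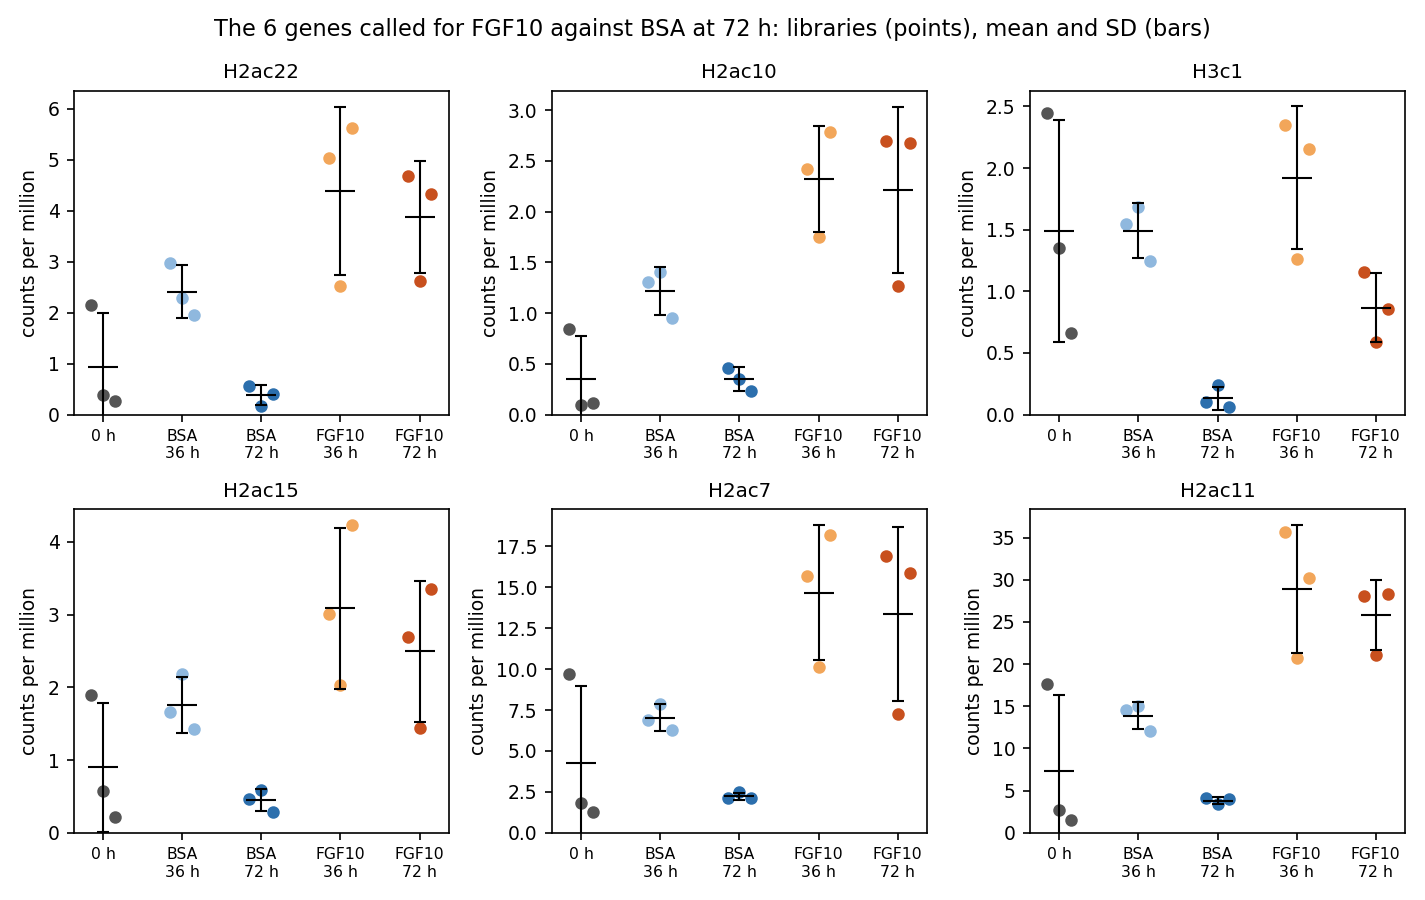
CPM (vertical axis, from 0) in each library (points) of the 5 groups for the 6 genes called for FGF10 against BSA at 72 h, with the mean and SD of 3 libraries (bars). In each gene all FGF10 72 h libraries lie above all BSA 72 h libraries, for example 2.62 to 4.68 CPM against 0.177 to 0.564 CPM in H2ac22.

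The number of calls at 72 h depended on the libraries fitted. With 0 h replicate 1 left out, which belongs to neither group but bears on the shared estimate of spread, the scaling and the filter (18634 genes were then tested), 15 of 46 histone genes rose (5.76% of all tested genes did), 12 of them H2A and 3 H3. The count was 0 without BSA 72 h replicate 3, and 0 as well without replicate 4 of FGF10 72 h. It was 1 without 2_1, without 2_2 and without replicate 2 of FGF10 72 h. With 2_1 and 2_2 summed as 1 library it was 1, and with limma voom it was 21. The share of all tested genes called in those fits is not given here, so the 21 does not set histone genes apart. The log2 difference of H2ac22 stayed between 2.98 and 3.70 when single libraries were left out.

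Markers of other cells moved with the same comparison. Immune markers summed to 376 to 467 CPM in BSA 72 h and 86.4 to 146 CPM in FGF10 72 h, and 8 of the 10 tested fell. Adipocyte markers summed to 424 to 432 CPM and 11.3 to 74.5 CPM (4 of 8 fell), endothelial markers to 78.0 to 177.7 CPM and 13.6 to 27.9 CPM (2 of 8 fell), and fibroblast markers to 40.6 to 91.9 CPM and 12.9 to 34.6 CPM. Of the immune markers Cd3e was at 0 in FGF10 72 h, and it was at 0.154, 0 and 0 CPM in BSA 72 h. Mammary epithelial markers summed to 20685 to 23446 CPM with BSA and 35975 to 39290 CPM with FGF10, and 3 of 10 rose (3.01% of all tested genes did). The share of all tested genes that fell is not given here. Single genes held much of these sums, with Lyz2 at 213 to 265 CPM and Fabp4 at 262 to 288 CPM in BSA 72 h. Krt14 was at 3392 to 3917 CPM with BSA and 10293 to 13624 CPM with FGF10. Mitochondrial transcripts were 2.21% to 2.60% of counts in BSA 72 h and 3.90% to 4.55% in FGF10 72 h. Their part in the histone result was not tested. In RNA from whole organoids, more cells making a histone transcript and more transcript per cell cannot be told apart.

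**Figure D3:**
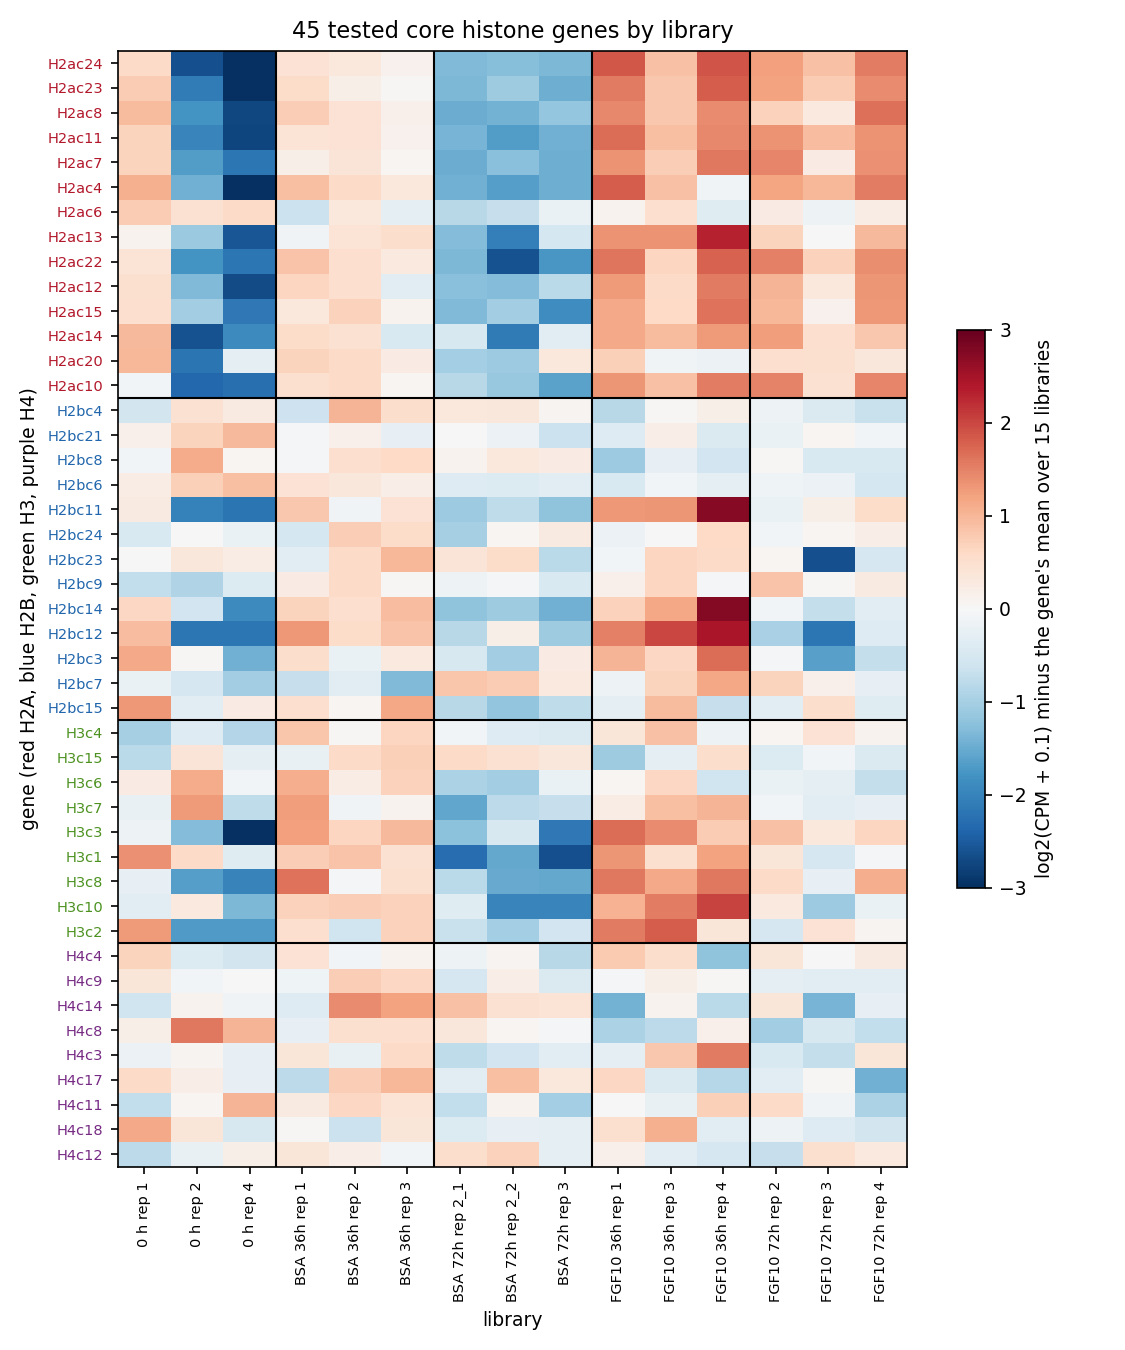
Each row is 1 of the 45 tested genes, ordered by class and mean level, and each column a library; colour gives log2(CPM + 0.1) minus the gene's mean over the 15 libraries. Most H2A rows are low in 0 h replicates 2 and 4 and in BSA 72 h and high with FGF10, a pattern that the H4 rows mostly lack; H2ac6 does not share it, with 4.05 CPM in the mean at 0 h, above 2.89 and 2.87 CPM in FGF10 36 h and FGF10 72 h.

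At 36 h the same comparison called 0 of the 45 genes in edgeR (2.34% of all tested genes were called). An unadjusted p under 0.05 was found in 6 (18.7% of all tested genes had one). Limma voom called 3 and DESeq2 called 1, given without the share of all tested genes. When 0 h replicate 1 was left out, 5 rose, of which 4 were H2A genes, and 2.28% of all tested genes rose. In 8 of the 14 H2A genes the FGF10 libraries lay above the BSA libraries without overlap (9.88% of all tested genes did). H2ac24 was at 92.8, 86.2 and 74.9 CPM with BSA and 251, 126 and 254 CPM with FGF10, where replicate 3 was the lowest of its group. H2ac13 was at 1.67, 2.41 and 2.62 CPM with BSA and 4.70, 4.71 and 9.24 CPM with FGF10 (log2 1.47 ± 0.53, adjusted p = 0.146, edgeR). H2bc11 was at 3.33, 1.74 and 2.56 CPM against 4.77, 4.82 and 13 CPM (log2 1.56 ± 0.55, adjusted p = 0.144, edgeR). In both, FGF10 replicate 4, the library low in mitochondrial counts, was the highest. H4c14 was at 1.96, 7.12 and 6.19 CPM against 0.915, 2.80 and 1.46 CPM and overlapped (log2 -1.55 ± 0.51, adjusted p = 0.117, edgeR).

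The change of the FGF10 effect from 36 h to 72 h was tested directly. It called 0 histone genes and 0 genes in all (edgeR), with 6 histone genes at an unadjusted p under 0.05 (5.50% of all tested genes were), and limma voom and DESeq2 also called 0 histone genes. The difference between the times was therefore not shown, although the log2 change was above 0 in all 14 tested H2A genes, with a median of 1.42.

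Against 0 h, the BSA 36 h libraries had 4 histone genes that rose (12.7% of all tested genes did), namely H3c4, H3c8, H3c3 and H2bc9. H3c4 was at 1.86, 2.90 and 2.04 CPM at 0 h and 6.90, 3.92 and 6.07 CPM in BSA 36 h (log2 1.33 ± 0.30, adjusted p = 0.00453, edgeR), and the groups did not overlap. H3c8 was at 0.422, 0.0968 and 0.055 CPM and then 1.84, 0.504 and 0.773 CPM (log2 2.22 ± 0.67, adjusted p = 0.0219, edgeR). In the fit without 0 h replicate 1, 19 rose and 2 fell (27.0% of all tested genes were called), and 12 of the 14 H2A genes were among those that rose. The summed H2A counts of BSA 36 h against 0 h went from a log2 ratio of 0.89 with that library to 2.71 without it.

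The FGF10 36 h libraries had 17 histone genes that rose and 4 that fell against 0 h, where 19.3% of all tested genes rose and 20.5% fell. Those that rose were 8 H2A, 5 H2B and 4 H3 genes. Among the H3 genes, H3c10 passed the filter only through FGF10 36 h, with 11, 19 and 24 counts there. H3c10 had 10 or fewer in every other library, so the filter and its call are not independent. H2bc11 was at 2.28, 0.387 and 0.330 CPM at 0 h, below all 3 FGF10 36 h values given above (log2 2.79 ± 0.59, adjusted p = 0.00230, edgeR). H2ac13 was at 1.94, 0.774 and 0.220 CPM at 0 h (log2 2.59 ± 0.57, adjusted p = 0.00255, edgeR). H2ac10, H3c8 and H3c4 rose by 2.51, 2.84 and 1.22 in log2 (adjusted p = 0.00304, 0.00346 and 0.00565, edgeR). These 5 did not overlap between the groups. The 4 that fell were H2bc6, H4c8, H2bc21 and H2bc8, by -0.93, -1.50, -0.81 and -1.06 in log2 (adjusted p = 0.00523, 0.00658, 0.0208 and 0.0211, edgeR). H4c8 was at 2.96, 8.03 and 5.39 CPM at 0 h and 1.31, 1.48 and 2.91 CPM in FGF10 36 h, and H2bc21 overlapped between the groups. Leaving out 0 h replicate 1, 22 rose and 4 fell (18.5% and 18.4% of all tested genes), with 12 H2A genes among those that rose. Leaving out FGF10 36 h replicate 4, 11 were called, 8 of them higher. Leaving out replicate 2 or replicate 4 of 0 h gave 12 and 13. No share of all tested genes is given for these last fits, so their counts do not set histone genes apart.

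The BSA 72 h libraries had 6 histone genes that were called against 0 h, each of which fell (25.2% of all tested genes were called in either direction), namely H3c1, H2bc6, H2ac6, H2bc21, H3c6 and H2bc15. H3c1 was at 2.45, 1.35 and 0.660 CPM at 0 h, each above the BSA 72 h values (log2 -3.46 ± 0.59, adjusted p = 0.000601, edgeR). H2bc6 was at 3.93, 5.61 and 6.44 CPM and then 2.57, 2.53 and 2.66 CPM (log2 -1.04 ± 0.23, adjusted p = 0.00391, edgeR), and H2ac6 fell by 1.19 on the log2 scale (adjusted p = 0.0106, edgeR). Once 0 h replicate 1 was left out, 4 rose and 6 fell (22.6% of all tested genes were called). The summed H2A counts changed sign with that library, from a log2 ratio of -0.73 with it to 1.09 without it.

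The FGF10 72 h libraries had 6 histone genes that rose against 0 h and 3 that fell, where 29.9% of all tested genes were called in either direction. H2ac10, H2ac22, H2bc9, H3c4, H3c8 and H3c3 rose, by 2.46, 1.93, 1.21, 0.99, 1.92 and 1.87 in log2. H4c8 fell by 1.82 on the log2 scale, H2bc6 by 0.93 and H2bc21 by 0.70. H2ac10 was at 0.845, 0.0968 and 0.110 CPM at 0 h, below every FGF10 72 h library (adjusted p = 0.00441, edgeR). H4c8 at 0 h lay above every FGF10 72 h library (adjusted p = 0.00293, edgeR). Omitting 0 h replicate 1, 16 rose and 3 fell (28.9% of all tested genes were called), and 12 of those that rose were H2A genes. The number called was 4 without replicate 2 or replicate 4 of 0 h. Without replicate 2 of FGF10 72 h it was 4, and without its replicate 4 it was 5. These last counts come without the share of all tested genes and do not set histone genes apart.

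Between 36 h and 72 h with BSA, 1 histone gene fell (0.143% of all tested genes did), H3c1, from 1.55, 1.68 and 1.25 CPM to the values given above (log2 -3.44 ± 0.59, adjusted p = 0.0313, edgeR). The 2 groups did not overlap. In 11 of the 14 H2A genes and 7 of the 9 H3 genes the BSA 72 h libraries lay below the BSA 36 h libraries without overlap (16.5% of all tested genes did). In the fit without 0 h replicate 1, 12 fell (1.86% of all tested genes did), 9 of them H2A, and limma voom called 22. Leaving out any single BSA library ended the call of H3c1. With FGF10 the comparison of 72 h with 36 h called 0 histone genes in edgeR (1.91% of all tested genes were called). Of the histone genes, 8 had an unadjusted p under 0.05 (16.8% of all tested genes had). Limma voom called 2 histone genes and DESeq2 called 3. For limma voom and DESeq2, with BSA or FGF10, the share of all tested genes is not given. With 0 h replicate 1 left out, 3 fell (0.730% of all tested genes did). The summed H2A counts were 3.06-fold lower at 72 h than at 36 h with BSA, without overlap, and 1.24-fold lower with FGF10, with overlap. These comparisons share libraries with those between the treatments.

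Position in the genome gave a further view. The genes form 3 blocks, with 10 on chromosome 3 and 23 and 26 in 2 blocks on chromosome 13. For FGF10 against BSA at 72 h the calls fell in both chromosome 13 blocks, 3 in each, and the 4 tested genes on chromosome 3 had a median log2 difference of -0.30. Of the H2A and H2B genes, 13 pairs stand head to head with 175 to 305 bases between their starts, so the genes of a pair share the sequence between them. Both were tested in 10 pairs. In each of the 10 the H2A gene had the higher log2 difference. In the pair of H2ac11 and H2bc11 the values were 2.76 and 1.31, in that of H2ac8 and H2bc8 2.38 and -0.51, and in that of H2ac6 and H2bc4 0.70 and -0.66. The pair with the most counts on the H2B side is thus the one with the lowest H2A value. The difference within pairs was not tested.

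**Figure D4:**
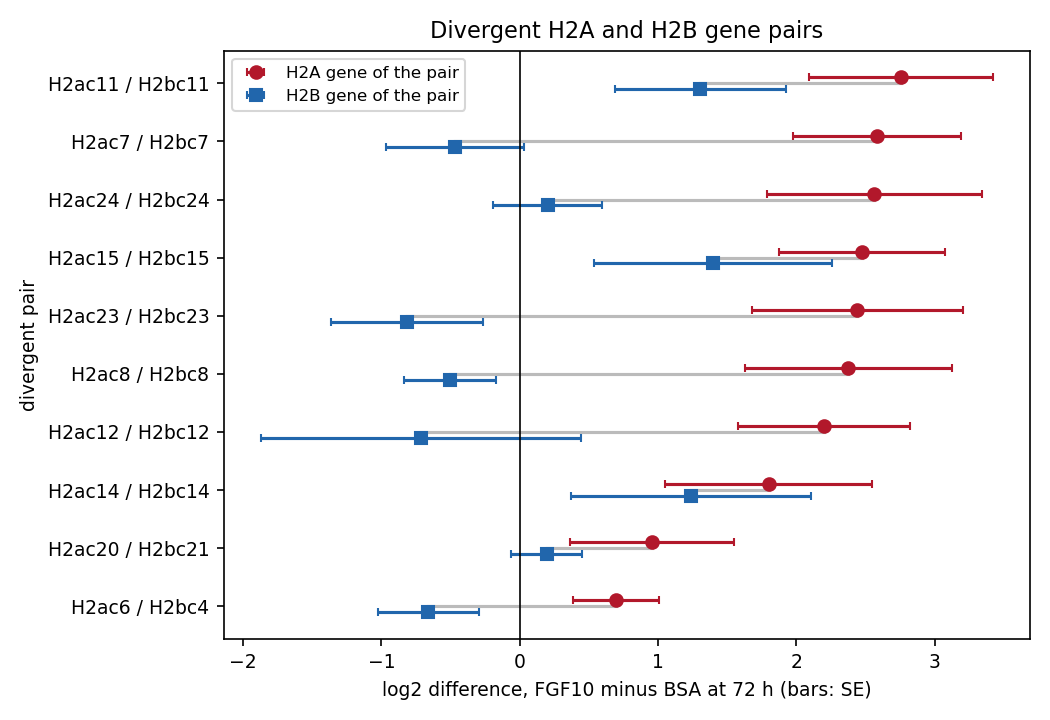
Log2 difference between FGF10 and BSA at 72 h (horizontal axis) with its SE (bars) for the 10 divergent pairs in which both genes were tested; circles are H2A genes and squares their H2B partners. Every circle lies to the right of its square, from 0.70 against -0.66 for H2ac6 and H2bc4 to 2.76 against 1.31 for H2ac11 and H2bc11.

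The transcript models offer another grouping, chosen after the values were seen and so only a description. In the 22 genes whose model ends within 100 bases of the stem-loop, counts summed to 65.5 to 74.9 CPM in BSA 72 h and 279 to 434 CPM in FGF10 72 h. H2ac23 and H2ac24 held most of this sum, at means of 26.3 and 27.5 CPM with BSA and 143 and 163 CPM with FGF10. The 15 whose model runs further past the stem-loop summed to 49.4 to 63.9 CPM and 69.8 to 101 CPM. Much of that difference is H2ac8, at means of 5.17 and 26.8 CPM, and 4 of the 14 tested had a log2 difference below 0. The 3 with no stem-loop in a model of over 600 bases summed to 351 to 422 CPM and 210.3 to 299 CPM, so this was the group with lower values under FGF10. That sum is nearly all H2bc4, with means of 390 and 247 CPM. The other members, H2bc21 and H2bc23, had log2 differences of 0.19 and -0.81. The 17 with no stem-loop in a model of up to 600 bases summed to 3.65 to 4.82 CPM and 11.4 to 21 CPM, and such short models may miss the stem-loop. The first group was mixed. H4c17, H4c8, H2bc12, H2bc7, H2bc3 and H4c18 in it had log2 differences from -0.95 to -0.04 at 72 h, and its tested H2A and H3 genes all had values above 0. H2ac8, whose model runs 151 bases past the stem-loop, had 2.38. Exons of 23 of the 59 genes overlap an exon of another annotated gene. In H2ac22, H2ac11 and H2ac24 this covers 35.9%, 28.4% and 28.6% of the exon, and reads there were left out.

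**Figure D5:**
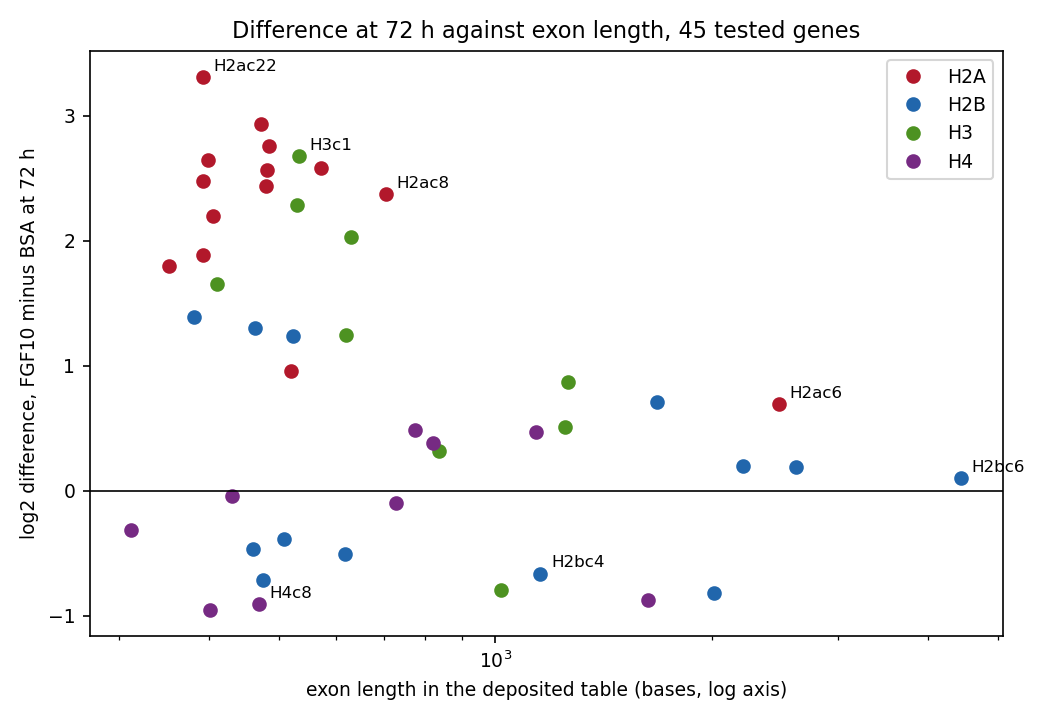
Log2 difference between FGF10 and BSA at 72 h (vertical axis) against exon length in the deposited table (bases, log axis) for the 45 tested genes, coloured by class. Most H2A genes with short exons lie near or above 2, up to 3.31 for H2ac22, whereas H2bc4 and H4c8 lie below 0.

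Genes that act with the core histones were taken from lists. In FGF10 against BSA at 72 h, H1f0, a linker histone known from cells that have stopped dividing, rose as 1 of 6 tested linker histones, from 215 ± 3.56 to 351 ± 13.1 CPM (SD, n = 3; log2 0.71 ± 0.18, adjusted p = 0.0327, edgeR). In this comparison 3.01% of all tested genes rose. Among 19 histone chaperones, which carry and deposit histones, 2 rose: Mms22l (log2 1.15 ± 0.30) and Ssrp1 (log2 0.56 ± 0.14). Among 29 DNA replication genes 2 rose, Dut (log2 1.60 ± 0.37) and Fen1 (log2 1.41 ± 0.37), and all 29 had a log2 difference above 0, with a median of 1.14. The 15 mitosis genes had a median of 1.52, and the smallest adjusted p was 0.238, for Plk1 (edgeR). Mki67 was at 22.8 ± 1.60 CPM with BSA and 59.1 ± 16.3 CPM with FGF10, and Pcna, the sliding clamp of replication, at 51.0 ± 2.73 and 81.8 ± 12.8 CPM (adjusted p = 0.305 and 0.179, edgeR).

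The factors that make the mature histone message had small differences at 72 h, with a median of 0.17 over 20 tested genes. Slbp was at 83.3, 74.7 and 66.7 CPM in BSA 72 h and 101, 93.0 and 120 CPM in FGF10 72 h, without overlap (log2 0.48 ± 0.20, adjusted p = 0.158, edgeR). Npat, the coactivator of histone genes at S phase entry, was at 17.5 ± 2.07 and 17.2 ± 1.10 CPM (SD, n = 3). Against 0 h with replicate 1 included, Slbp rose in FGF10 36 h (log2 0.82 ± 0.20, adjusted p = 0.00506, edgeR). So did 8 of the 20 processing genes, 10 of 19 chaperones and 19 of 29 replication genes, where 19.3% of all tested genes rose.

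Replacement histones can be made outside S phase, mostly from polyadenylated messages, and as a sum they exceeded the replicative genes in these libraries. The 10 on the list summed to 2820 to 3337 CPM in BSA 72 h and 4539 to 5431 CPM in FGF10 72 h, and H3f3b held most of this. In BSA 72 h only H3f3b and H3f3a of the list lay above H2bc4, and H2ax was at 32.7, 32.8 and 33.8 CPM. H3f3b, which encodes H3.3, was at 1970 ± 178 and 3340 ± 306 CPM (log2 0.76 ± 0.23, adjusted p = 0.0621, edgeR). It had fallen against 0 h, where it was at 6642 ± 2263 CPM, by 1.75 on the log2 scale in BSA 72 h (adjusted p = 8.36e-05, edgeR). H2az1, the H2A.Z gene, was at 48.0 ± 6.32 and 107.5 ± 15 CPM at 72 h (log2 1.16 ± 0.40, adjusted p = 0.102, edgeR).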

How the data were processed

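The values were raw fragment counts per gene, deposited by the authors as 1 table from featureCounts 2.0.1, in pairs, over exons by gene name, without strand and without reads of several places or genes, per the file headers. The submitters' processing notes list cutadapt 1.9.1, HISAT2 2.2.1, HTSeq and GRCm39. The counter was taken from the headers. Titles of FGF10 72 h read FGF0, and their treatment label was followed.

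Genes passing filterByExpr (at least 10 counts, total of at least 15) were scaled with TMM and tested with the robust quasi-likelihood test of edgeR 4.0.16 (R 4.3.3) in 1 fit of 5 groups, with 9 contrasts and Benjamini-Hochberg adjustment over 18140 genes at 0.05. SE was taken as log2 difference / sqrt(F). On simulated data the fit was checked first. Members and lists were chosen with earlier results of these data known. Named were the 3 genes per class with the highest mean, those called between treatments, the 5 smallest p each way in other contrasts, and set genes of each list. The alternatives were DESeq2 1.42.0, its size factors, limma 3.58.1 voom, other filters, a replicate block, only the groups compared, 2_1 and 2_2 summed, and each library left out. The mean chi-square per gene between libraries 2_1 and 2_2 was 4.60, against 10.5 for the next pair of that group, and the libraries were kept apart.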

Additional observations from a re-analysis of the deposited data

How the results depend on the processing

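No called histone gene reversed its direction under an alternative, whereas some summed counts of H2A, H2B, H3, H4 and all classes changed sign. The number of histone genes called was also sensitive to the libraries fitted, and the cause was not tested. With single libraries left out, the number called for FGF10 against BSA ran from 0 to 5 at 36 h and from 0 to 15 at 72 h. Against 0 h it was 1 to 21 (BSA 36 h), 11 to 26 (FGF10 36 h), 4 to 10 (BSA 72 h) and 4 to 19 (FGF10 72 h). For 72 h against 36 h it ran from 0 to 12 with BSA and from 0 to 3 with FGF10. With limma voom the numbers called were 3 and 21 for FGF10 against BSA at 36 h and 72 h, 16 for BSA 36 h and 20 for FGF10 72 h against 0 h, and 22 with BSA and 2 with FGF10 for 72 h against 36 h. With DESeq2 they were 1 and 14 between treatments, 15 for FGF10 72 h against 0 h, and 6 and 3 between times. Fitting only the groups compared gave 17 for FGF10 against BSA at 72 h, 1, 6 and 5 for BSA 36 h, FGF10 36 h and FGF10 72 h against 0 h, and 15 and 1 between times. Without the filter, 72 h against 36 h gave 2 with BSA and 1 with FGF10. With 2_1 and 2_2 summed, FGF10 against BSA at 72 h gave 1 and 72 h against 36 h with BSA gave 0. These numbers stand without the share of all tested genes called in the same fit. They describe how the counts moved and do not set histone genes apart.

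Correlations of deviations were above 0.1 in 9 of 21 same-numbered pairs (-0.16 to 0.43) and in 10 of 69 others (-0.27 to 0.21), with 0.43 and 0.28 for the pairs of BSA 36 h with FGF10 36 h. Not every same-numbered pair passed 0.1 and not every library correlated best with its own number, so the numbers were not taken as pairing. With the numbers as a replicate block, 18 histone genes were called for FGF10 72 h against 0 h. For 72 h against 36 h with FGF10 it was 1, and the other counts stayed within 1.5 times. The share of all tested genes in this fit is not given either.

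For the sums, leaving out the gene with the most counts moved the log2 ratio over all classes to 0.89 and 1.77 for FGF10 against BSA at 36 h and 72 h and to 0.88 for the change between them. Against 0 h it moved to 1.53 for FGF10 36 h, -0.56 for BSA 72 h and 1.21 for FGF10 72 h, and for 72 h against 36 h with BSA to -1.20. The H2B ratio moved to 0.19 and 0.057 between treatments and the H4 ratio at 72 h to -0.38. Scaling by total counts moved the H3 ratio at 72 h from 0.45 to 0.28 and the ratio over all classes for BSA 72 h against 0 h from -0.08 to 0.13. Genes with 1 to 20 counts per library, such as H3c1, are limited by depth.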

Other observations

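Across the 15 libraries, the genes whose log2 CPM was most like the summed H2A counts were Gm4739, Dut, H2ax, Hmgb2 and Mybl2, with Pearson r from 0.979 to 0.988 among 18095 genes. This measure was chosen after the values were seen. Those most like the sum of all 59 genes were Gm13370, Psma1, Gm12191, Ube2n-ps1 and Gm10177, with r from 0.922 to 0.937. The libraries share treatments and times, so these values describe the series and carry no test. With Mki67, r was 0.95 for H2ac24, 0.91 for H2ac11, -0.48 for H2bc4 and -0.79 for H4c8, over the same 15 libraries. H2bc4 and H2ac24 had r of -0.52 with each other.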
